A study of Mus musculus with 2 samples.

Results

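Pax6, Rax, Six3, Six6 and Lhx2 are transcription factor genes of the early eye field, and they were followed here by cell class in mouse eye cups. The members were the 5 of 31053 listed genes whose symbol equalled these names, and all 5 had counts in both libraries. The study compared 2 genotypes at e15.5 by single-cell RNA-seq to ask how loss of Myrf, a transcription factor gene of the retinal pigment epithelium (RPE), altered cells of the eye. Each genotype gave 1 library, made from 3 pooled eye cups from which the cornea, lens and optic nerve had been taken off. The control was Myrf fl/fl, with loxP sites in both copies of Myrf. Mutant eye cups were Rx>cre Myrf fl/fl and carried, besides the same floxed alleles, a Cre transgene that Rx sequences switch on in the eye field, from which retina and RPE both descend. Surface epithelium, vessels and the mesenchyme around the eye do not arise from that field.

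These genes are expressed together in the anterior neural plate, where they set aside the tissue that becomes the eye. Pax6 encodes a paired-domain and homeodomain protein needed for lens and retina, and in the later retina it keeps progenitors multipotent and is retained in amacrine and ganglion cells. Rax encodes a homeodomain protein without which optic vesicles do not form, and it later takes part in photoreceptor development. Six3 and Six6 encode closely related homeodomain proteins of the forebrain and optic vesicle, Six3 acting also to hold back Wnt signalling and Six6 to sustain progenitor proliferation. Lhx2 encodes a LIM-homeodomain protein needed for the step from optic vesicle to optic cup, for progenitor maintenance and for early RPE specification.

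Six3 and Six6 are a paralogous pair, and their promoters are printed with the longest run of bases that they share marked. Whether that run bears on the levels of either gene was not tested. The sequences are RefSeq promoter windows of GRCm38.p6, from 250 bases before to 50 after the annotated start of transcription, on the + strand. The Six6 window is chr12:72939632-72939931 and the Six3 window is chr17:85620584-85620883. The capitals mark the longest run of bases that both windows hold on the same strand. This run was looked for after the levels were known.
Six6: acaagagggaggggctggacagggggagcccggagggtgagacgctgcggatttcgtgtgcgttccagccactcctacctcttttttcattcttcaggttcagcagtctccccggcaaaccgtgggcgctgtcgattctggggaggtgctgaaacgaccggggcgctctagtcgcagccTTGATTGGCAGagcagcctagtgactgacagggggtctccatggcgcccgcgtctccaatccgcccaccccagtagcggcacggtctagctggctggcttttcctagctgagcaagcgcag
Six3: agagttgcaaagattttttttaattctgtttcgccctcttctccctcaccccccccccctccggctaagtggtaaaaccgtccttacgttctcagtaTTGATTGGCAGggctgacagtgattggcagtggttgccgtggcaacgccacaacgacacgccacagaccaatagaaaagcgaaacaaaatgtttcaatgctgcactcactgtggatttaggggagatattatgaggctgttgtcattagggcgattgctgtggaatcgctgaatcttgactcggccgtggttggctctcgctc
The run TTGATTGGCAG is 11 bases long, starts at base 180 of the Six6 window and base 98 of the Six3 window, and holds ATTGG, the reverse complement of the CCAAT box. It was found in 12 of 32851 promoter windows of the same length, or 0.0365%, searched on both strands. The Six3 and Six6 windows, from which the run was taken, are among the 12. Runs of this length are rare in general, so no conclusion is drawn from the share. CCAAT itself, searched on both strands, was found 3 times in the Six3 window, 2 times in the Six6 window and 1 time in 1 of 2 Pax6 windows, and not in either Lhx2 window, while 37.4% of all windows held it. TAATTA, a core motif of homeodomain proteins that reads the same on both strands, was in 0 of the 6 windows of these 4 genes and in 5.29% of all windows. These matches describe letters in the reference only. In the genome annotation Pax6 lies at chr2:105668900-105697364, Six3 at chr17:85613608-85629302, Six6 at chr12:72939892-72944899 and Lhx2 at chr2:38339281-38369733, all on the + strand. The promoter and position of Rax are not reported here.

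The libraries held 13017 control and 13880 mutant barcodes, with median depths before filtering of 9339 and 8702 UMIs (unique molecular identifiers, 1 per captured transcript). Of these barcodes 11576 and 12623 were kept. The libraries shared 61 barcodes. Clusters were made without the 5 genes and were named from markers, so that a class is called X-like. Levels are given as CPM, the UMIs of a gene in a class and library scaled to a class total of 1000000, and intervals are exact 95% intervals that cover counting error only. With 1 library per genotype and cells that are not replicates, no test was possible between genotypes and none was made between classes, and the counts come from the 3′ ends of transcripts, so that levels of different genes are not compared. Progenitor-like cells, 2356 control and 3483 mutant, held Fgf15 at 1681 and 1835 CPM against 57.1 and 99.7 in all other cells. RPE-like cells, 362 and 191, held Pmel at 7748 and 7730.3 against 61.1 and 40.1, together with Ttr, Dct, Tyr and Mlana, while Rpe65, a late RPE gene, had 0 UMIs in them in both libraries. The targeted gene Myrf was at 76.5 control and 30.3 mutant CPM in RPE-like cells, a ratio of 0.396 (0.293 to 0.527). Reads from the 3′ end need not come from the deleted part of the gene.

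**Figure D1:**
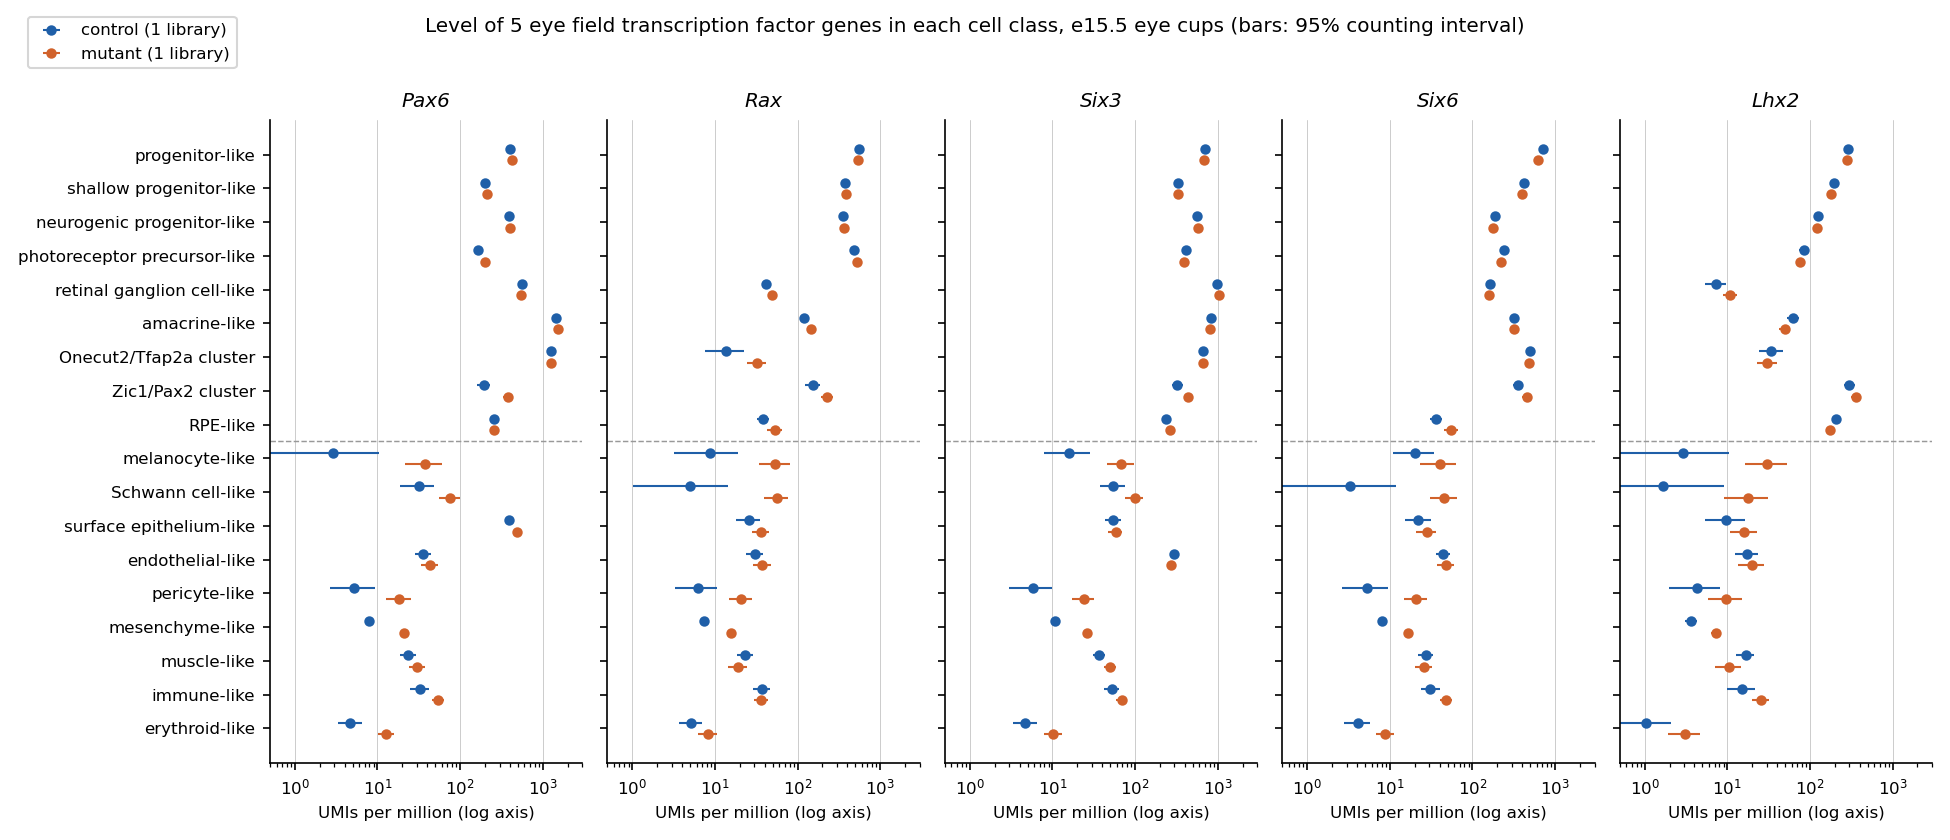
Level of each of the 5 genes, as CPM (UMIs scaled to a class total of 1000000) on a log axis, in every named cell class of the control (blue) and mutant (orange) library, with 95% counting intervals. Classes above the dashed line are eye cup neuroepithelium and neurons, and Pax6 in surface epithelium-like cells and Six3 in endothelial-like cells stand to the right of the other classes below the line.

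Retinal progenitors held all 5 genes. In progenitor-like cells Pax6 was at 405 (397 to 413) control and 429 (422 to 436) mutant CPM. Rax stood at 557 and 544, Six3 at 707 and 682, and Lhx2 at 288 and 284. Six6 was at 705 (695 to 715) in control and 614 (606 to 623) in mutant progenitor-like cells, which was the widest gap among the 5. Rax and Six6 reached their highest class level here.

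Neurogenic progenitors differed from progenitors in some of the genes and not in others. Neurogenic progenitor-like cells, which carry Atoh7, Neurog2 and Dll1 and are about to exit the cycle, had Six6 at 189 control and 178 mutant CPM, 3.74-fold and 3.46-fold below progenitor-like cells. Lhx2 was 2.29-fold and 2.34-fold lower in them, at 126 and 121. Pax6 was at 395 and 401, beside 405 and 429 in progenitor-like cells, and Six3 was at 570.1 and 577. Rax lay between, at 0.629 and 0.677 of its progenitor level. Six6 and Lhx2 thus had the lowest levels relative to progenitor-like cells.

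Within the neurogenic class, Pax6 and Rax went opposite ways between 2 clusters. The cluster led by Neurog2, Atoh7 and Olig2 had Pax6 at 295 control and 317 mutant CPM, and the cluster led by Gal, Gadd45a and Atoh7, in which Pou4f2 was also among the leading genes, had it at 542 and 567. The ratio of the latter to the former was 1.83 (1.71 to 1.97) in control and 1.79 (1.69 to 1.90) in mutant. Rax was at 437 and 439 in the former and at 222 and 229 in the latter, ratios of 0.508 and 0.522. Six6 was nearly level between the 2 clusters, with ratios of 0.953 and 1.01, Lhx2 had ratios of 0.688 and 0.738, and Six3 1.25 and 1.18. The clusters were built without these genes, and both libraries gave the same order for the 4 genes other than Six6.

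**Figure D2:**
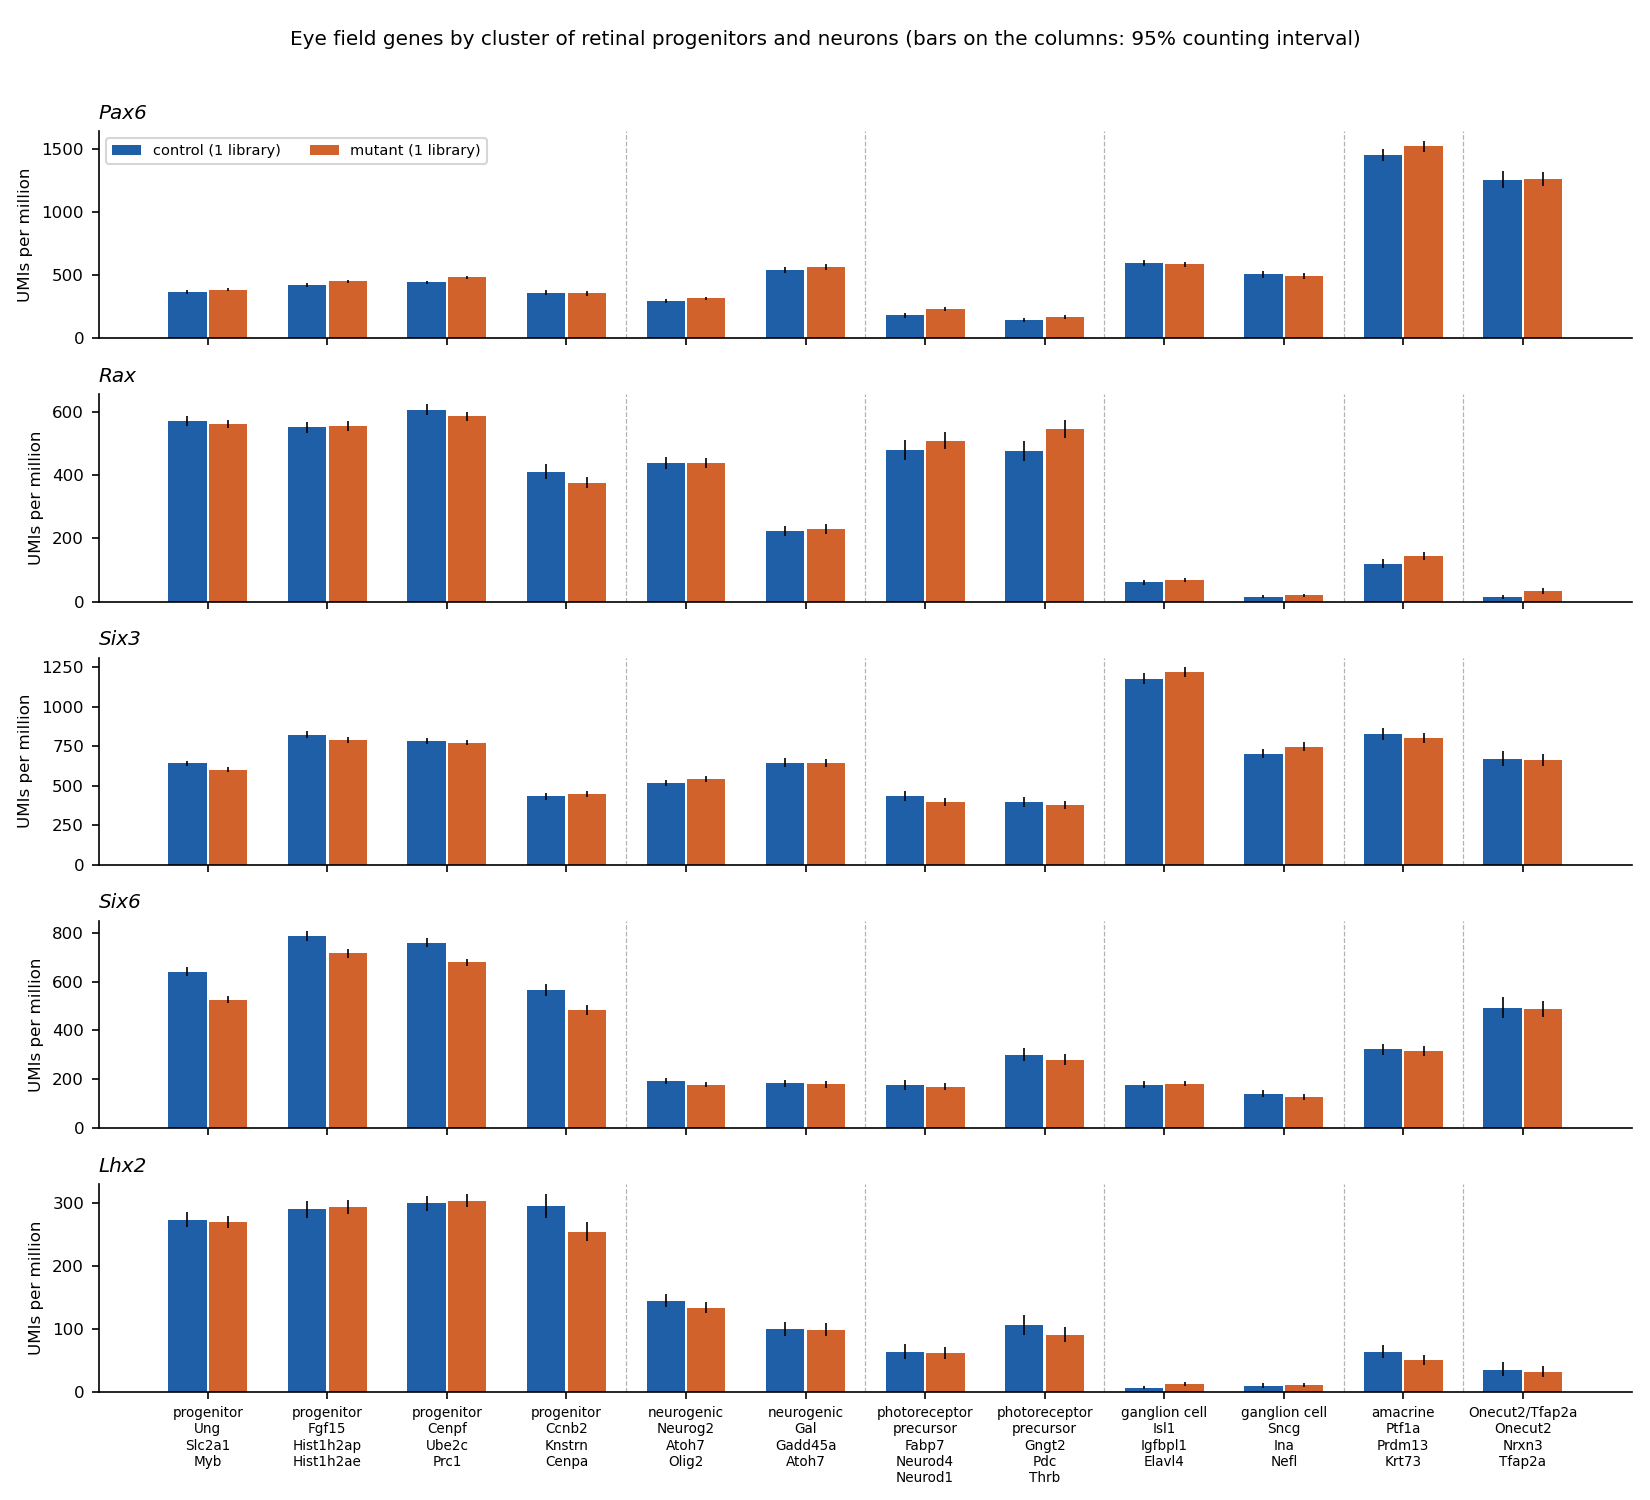
CPM of each gene (linear axis from 0) in the 12 clusters of progenitors and neurons, named by their leading genes, in control (blue) and mutant (orange), with 95% counting intervals. Pax6 peaks in the amacrine and Onecut2/Tfap2a clusters, Six3 in the ganglion cell cluster led by Isl1, and Six6 in the progenitor cluster led by Fgf15 and histone genes.

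Retinal ganglion cell-like cells, 426 control and 532 mutant, were the site of the highest Six3 level. Six3 was at 985 control and 1034 mutant CPM there, or 1.39 and 1.52 times its progenitor level. Pax6 stood at 559 and 553. Rax was at 41.9 and 49.4, which is 13.3-fold and 11-fold below progenitor-like cells, and Six6 at 163 and 160.0, 4.33-fold and 3.84-fold below. Lhx2 was low, at 7.22 and 10.8 CPM from 50 and 97 UMIs, 39.8-fold and 26.2-fold below progenitor-like cells. In mesenchyme-like cells of the same libraries Lhx2 was at 3.62 and 7.34, so that the ganglion cell value stood little above cells not known to express it.

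Levels also differed along the ganglion cell clusters. Six3 was at 1178 control and 1219 mutant CPM in the cluster led by Isl1, Igfbpl1 and Elavl4 and at 704 and 747 in the cluster led by the neurofilament and axon genes Sncg, Ina and Nefl, ratios of 0.598 and 0.613. Rax was at 60.5 and 68.2 in the former, with ratios of 0.246 and 0.293 in the latter. Pax6 had ratios of 0.852 and 0.846 and Six6 of 0.794 and 0.690. All 4 of these genes were lower in the cluster rich in axon genes in both libraries, while Lhx2 had 6.10 and 11.4 in the former and 8.85 and 9.99 in the latter.

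Photoreceptor precursor-like cells, 448 control and 658 mutant, kept Rax. Rax was at 478 control and 527 mutant CPM, 0.857 and 0.968 of its progenitor level, and the ratio was lower for each of the other 4. Pax6 was at 164 and 200.1, its lowest among the progenitor and neuron classes. Six3 was at 415 and 388, Six6 at 238 and 223 and Lhx2 at 83.6 and 74.8. Between the cluster led by Fabp7, Neurod4 and Neurod1 and the cluster led by the cone and phototransduction genes Gngt2, Pdc and Thrb, Six6 went from 176 to 301 in control and from 169.7 to 280.0 in mutant. Lhx2 went from 62.7 to 105 and from 61.2 to 89.2, and Pax6 from 183 to 145 and from 231 to 167. Six6 and Lhx2 were thus higher in the cluster richer in phototransduction genes, in both libraries, and Rax had ratios of 0.994 and 1.07 between these clusters.

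Amacrine-like cells, 281 control and 393 mutant, had the highest Pax6 level of any class. Pax6 was at 1455 (1406 to 1506) control and 1524 (1481 to 1568) mutant CPM, 3.59 and 3.55 times its progenitor level. The next class was a cluster led by Onecut2 and Tfap2a, which scored best for horizontal cell markers but had more amacrine markers among its leading genes and was therefore called by its genes. Pax6 was at 1259 and 1265 there. Six6 was at 492 and 488 in this cluster, above its 322 and 314 in amacrine-like cells and below its progenitor level. Rax was at 119 and 144 in amacrine-like cells and at 13.5 and 32.2 in the Onecut2/Tfap2a cluster.

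The classes were ordered by the mean of both libraries, and neighbours in the order had separate library ranges unless an overlap is named. For Pax6 the order was amacrine-like, Onecut2/Tfap2a cluster, retinal ganglion cell-like, then surface epithelium-like, progenitor-like and neurogenic progenitor-like, where the surface epithelium-like range held those of both others. For Rax it was progenitor-like, photoreceptor precursor-like, shallow progenitor-like (progenitor clusters with a median of 1265.0 control and 1339.5 mutant UMIs per cell) and neurogenic progenitor-like. For Six3 it was retinal ganglion cell-like, amacrine-like, progenitor-like, Onecut2/Tfap2a and neurogenic progenitor-like. For Six6 it was progenitor-like, Onecut2/Tfap2a, then shallow progenitor-like and the Zic1/Pax2 cluster described further on, whose ranges overlapped. For Lhx2 it was the Zic1/Pax2 cluster, progenitor-like, then RPE-like and shallow progenitor-like with overlapping ranges, at means of 190.3 and 188 CPM.

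RPE-like cells carried Pax6, Six3 and Lhx2 and little Rax or Six6. Pax6 was at 259 (243 to 276) control and 254 (231 to 278) mutant CPM, 0.640 and 0.591 of its progenitor level. Six3 was at 239 (223 to 255) and 266 (243 to 290.3), and Lhx2 at 205 (191 to 219.7) and 176 (157 to 196), which is 1.40-fold and 1.61-fold below progenitor-like cells. Rax was at 38.1 (32.2 to 44.8) and 53.1 (43.2 to 64.6), 14.6-fold and 10.3-fold below. Six6 was at 36.5 (30.7 to 43.1) and 55.7 (45.6 to 67.5), 19.3-fold and 11-fold below. The related genes Six3 and Six6 therefore parted in RPE-like cells, with 6.53 (5.46 to 7.86) control and 4.77 (3.86 to 5.95) mutant UMIs of Six3 per UMI of Six6, against 1.00 and 1.11 in progenitor-like cells. This was not particular to RPE-like cells. Retinal ganglion cell-like cells, at 6.04 and 6.46, and endothelial-like cells, at 6.69 and 5.79, had values of like size.

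Many RPE-like barcodes also held UMIs of markers of other classes, and the levels were set beside those of barcodes without them, a selection chosen after the levels had been seen. With no UMI of Pax3, Hbb-bt, Col1a1 or Atoh7, 164 control and 74 mutant cells were left. In those cells Rax was at 21.9 (14.1 to 32.3) control and 58.0 (39.7 to 81.9) mutant CPM, and Six6 at 23.6 (15.6 to 34.3) and 65.3 (45.7 to 90.4). The values of both genes were thus below those of all RPE-like cells in control, with overlapping intervals, and not in mutant. When cells with an Fgf15 UMI were left out too, 151 and 59 cells remained, with Rax at 11.7 and 22.2, from 12 and 9 UMIs, and Six6 at 11.7 and 17.3, from 12 and 7. Pax6 stood at 193 and 215, Six3 at 222 and 257 and Lhx2 at 189 and 178 in the same cells. Fgf15, a progenitor marker, itself differed between the libraries, at 43.2 control and 114 mutant CPM in RPE-like cells of at least 2000 UMIs. The source of these Fgf15 UMIs was not tested. The selected cells were also shallow, with a median of 3293 control and 2919 mutant UMIs, against 13190 and 8341.5 in the cells with a marker. In RPE-like cells under 2000 UMIs, whatever their markers, Rax was at 15.8 from 2 UMIs in control and 107 from 8 in mutant, and Six6 at 7.89 from 1 and 53.7 from 4. Depth and the absence of the markers cannot be told apart in these cells.

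Levels in tissue outside the eye field are set beside these values. In erythroid-like cells the 5 genes lay between 1.05 and 5.10 CPM in control and between 3.08 and 12.8 in mutant. The globin gene Hbb-bs alone stood at 432389 and 438736 CPM in them, which lowers the CPM of all other genes. In mesenchyme-like cells the range was 3.62 to 10.7 in control and 7.34 to 26.4 in mutant. Other such classes were higher. In immune-like cells Rax was at 36.7 control and 36.6 mutant CPM and Six6 at 31.0 and 48.2, and in endothelial-like cells Rax was at 30.6 and 37.5 and Six6 at 44.3 and 47.4. The library ranges of Six6 overlapped between RPE-like, endothelial-like and immune-like cells. Those of Pax6, Lhx2 and, by a small margin, Rax in RPE-like cells lay above both other classes, and that of Six3 lay above immune-like but below endothelial-like cells. In melanocyte-like cells Rax was at 8.66 control and 54.0 mutant CPM, from 6 and 23 UMIs. In Schwann cell-like cells it was at 4.96 and 56.0, from 3 and 38 UMIs. For Rax and for Six6 the library ranges of both these classes overlapped those of RPE-like cells. Mesenchyme-like cells had 1.34 (1.16 to 1.55) and 1.60 (1.43 to 1.79) UMIs of Six3 per UMI of Six6, nearer to the progenitor-like values than to those of RPE-like cells. The part of free RNA in the RPE-like values was not tested.

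Surface epithelium-like cells, 82 control and 111 mutant, which carry the keratin genes Krt5, Krt14 and Krt15, had Pax6 at 392 and 493 CPM. Rax was at 25.6 and 35.9, Six6 at 22.2 and 28.0 and Lhx2 at 9.70 and 15.8 in them. The UMIs of Pax6 per UMI of Rax numbered 15.3 (10.9 to 21.9) and 13.7 (10.7 to 17.8), against 0.727 and 0.789 in progenitor-like cells. Among the 5 genes, Pax6 alone had a level in this class like that in progenitor-like cells, and Pax6 is a known gene of ocular surface epithelium.

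Endothelial-like cells, 163 control and 129 mutant, stood apart by Six3. Six3 was at 297 (275 to 320.1) control and 274 (249 to 301) mutant CPM, from 669 and 446 UMIs in 95 and 73 cells. Pax6, Rax, Six6 and Lhx2 lay between 17.3 and 44.3 in control and between 19.7 and 47.4 in mutant. Six3 made up 69.8% (66.8 to 72.7) control and 65.0% (61.3 to 68.6) mutant of the UMIs of the 5 genes, against 26.5% and 26.7% in progenitor-like cells and 28.4% and 30.3% in mesenchyme-like cells. The class was led by Cdh5, Egfl7 and Plvap, and Cdh5, the cadherin of endothelial junctions, was at 785 and 830.5 CPM against 0.420 and 0.545 elsewhere.

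The Six3 level was also taken in endothelial-like cells without UMIs of other members. In the 132 control and 103 mutant endothelial-like cells with no UMI of Pax6, Rax or Six6, Six3 was at 298 and 237 CPM, the mutant value lying below the interval over all mutant cells of the class. Over all cells of both classes, without that selection, the log2 ratio of endothelial-like to mesenchyme-like cells was 4.80 and 3.38. The alternative selections of cells moved this ratio by up to 1.93. The 5 richest endothelial-like cells held 33.8% and 24% of the Six3 UMIs, and without the 5 richest cells of each class the log2 ratio was 4.64 and 3.37. The part of retinal RNA in the endothelial-like level was not tested. These selections were chosen after the levels had been seen.

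Detection per cell was compared at equal depth. Cells with at least 2000 UMIs were thinned to 2000. Of progenitor-like cells, 2321 control and 3425 mutant, 72.8% and 68.2% then had a UMI of Six6, 70.4% and 69.3% of Six3, 64.9% and 63.3% of Rax, 52.8% and 54.7% of Pax6, and 43.2% and 41.8% of Lhx2. Without thinning the shares lay between 89.3% and 97.8% in control and between 87.6% and 96.4% in mutant. Erythroid-like cells, which should lack all 5, gave 0.654% to 1.31% in control and 0.246% to 1.72% in mutant at the same depth. Their median depth was 16701 and 16636 UMIs, against 10256.5 and 9556.0 in progenitor-like cells. Globin genes took much of it, Hbb-bs alone 432389 and 438736 CPM, so that fewer of the 2000 UMIs were left for other genes. Cells with none of the 5 genes made up 85.5% and 81.7% of immune-like cells and 55.6% and 59.2% of endothelial-like cells.

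In RPE-like cells thinned alike, 246 control and 123 mutant, 34.6% (28.6 to 40.9) and 39.0% (30.4 to 48.2) had a UMI of Pax6. Six3 was seen in 34.6% and 37.4%, and Lhx2 in 26.4% and 33.3%. Rax was seen in 5.69% (3.15 to 9.36) and 11.4% (6.36 to 18.4), and Six6 in 8.54% (5.36 to 12.8) and 8.94% (4.55 to 15.4). Another 116 control and 68 mutant RPE-like cells were too shallow to thin, and the median depths of the class were 7378 and 4199 UMIs. The intervals of the 2 libraries overlapped for each of the 5 genes. Unthinned, the Rax shares were 16% and 25.1% and the Six6 shares 11.6% and 18.8%. For Lhx2 the order of the libraries was the reverse at other settings, at 54.6% and 42.9% when cells were thinned to 4000 UMIs and 59.1% and 56.0% unthinned. The cells counted changed along with the depth, so that the 2 cannot be told apart.

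**Figure D3:**
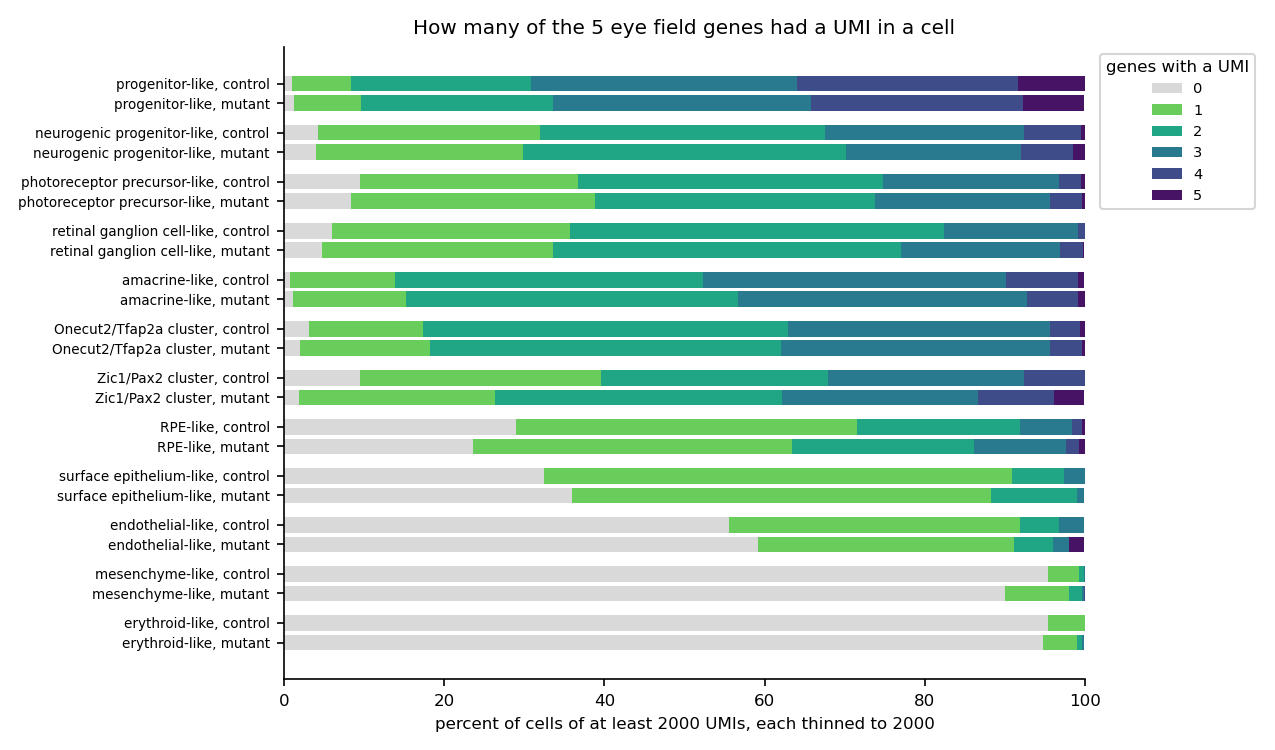
Percent of cells with a UMI of 0 to 5 of the genes, by class and library, among cells of at least 2000 UMIs thinned to 2000. In progenitor-like cells 69.2% of control and 66.4% of mutant cells had 3 or more of the genes, in RPE-like cells 8.13% and 13.8%, and in mesenchyme-like cells 0.107% and 0.360%.

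The genes were found together in progenitor-like cells at this depth. At least 3 of the 5 were seen in 69.2% of control and 66.4% of mutant progenitor-like cells, and none in 1.03% and 1.20%. In neurogenic progenitor-like cells 32.4% and 29.8% had at least 3, in amacrine-like cells 47.6% and 43.3%, and in retinal ganglion cell-like cells 17.6% and 22.9%. In progenitor-like control cells, Six6 was seen in 73.7% of cells with Six3 and in 70.6% of those without it. In RPE-like cells, Rax was seen in 28.6% of the 21 control cells with Six6 and in 3.56% of those without it, and in 63.6% of the 11 mutant cells with Six6 against 6.25% of those without. Rax and Six6 were thus concentrated there in a few and partly the same cells, and the 5 cells richest in Six6 held 30.7% of its UMIs in control and 51.4% in mutant.

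Within the progenitor-like class the 5 genes varied to different degrees over 4 clusters. Those clusters were led by Ung and Slc2a1, by Fgf15 and histone genes, by Cenpf and Ube2c, and by Ccnb2 and Knstrn, gene sets known for successive parts of the cell cycle. Six3 varied most, from 433 to 822 CPM in control and from 448 to 792 in mutant, a ratio of 1.90 and 1.77. Six6 varied from 565 to 786 and from 484 to 715. Both were lowest in the Ccnb2 cluster and highest in the Fgf15 and histone cluster, whose histone genes belong to DNA replication. The Ccnb2 and Cenpf clusters are both led by genes that act around mitosis, but in the Cenpf cluster Six3 was at 786 and 773 and Six6 at 759 and 678. Rax and Pax6 were lowest in the Ccnb2 cluster too and highest in the Cenpf cluster, with ratios of highest to lowest of 1.48 and 1.56 for Rax and 1.22 and 1.36 for Pax6, while Lhx2 was nearly flat in control at 1.10, and at 1.19 in mutant.

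Across the classes, the pattern of each gene was set against all 13967 genes with enough UMIs, by Pearson's r of log2(CPM + 10) over 32 points, 16 classes in each of 2 libraries. The points share libraries and cells of common descent, and r is given as a description. The genes most like Pax6 were Meis1 (0.958), Celsr2 (0.909) and Ddr1 (0.901), and Meis1 encodes a TALE homeodomain protein. The genes most like Rax were Gldc (0.945) and Fezf2 (0.943), followed by Ccdc60, Rsph1 and Katnal2 at 0.932 to 0.914. Those most like Six3 were Mycn (0.935), Trim37 (0.923), Chd7 (0.901), Vax2 (0.898) and Six6 (0.889), Six6 being the only member among the top 5 of another. For Six6 they were Frat2 (0.949), Vax2 (0.926), Arvcf, Hmx1 and Tekt1 (0.917), and Vax2 and Hmx1 encode homeodomain proteins of the optic cup. For Lhx2 they were Adgrv1 (0.953), Ildr2 (0.942), Plch1, Crb2 and Cspg5 (0.918). Among the 5 genes themselves r ran from 0.52 between Pax6 and Rax to 0.89 between Six3 and Six6.

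In progenitor-like cells the genotypes differed little in these genes. Mutant to control, the ratio was 1.06 (1.03 to 1.09) for Pax6, 0.977 (0.956 to 0.998) for Rax, 0.966 (0.947 to 0.984) for Six3 and 0.986 (0.957 to 1.02) for Lhx2. For Six6 it was 0.872 (0.855 to 0.889), a log2 ratio of -0.20. Thus 0 of 5 were past 1.5 fold, where 5.58% of the 13896 genes with at least 20 UMIs were, in either direction. The median log2 ratio of the 5 was -0.034, and that of all genes -0.022.

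Six6 was lower in the mutant library in 4 of 4 progenitor clusters. It was at 640.4 control and 526 mutant CPM in the Ung cluster, 786 and 715 in the Fgf15 and histone cluster, 759 and 678 in the Cenpf cluster, and 565 and 484 in the Ccnb2 cluster. The counting intervals did not overlap in any of these clusters. Of all genes tested in the class, 12.6% had a lower ratio than Six6. Whether 2 libraries of 1 genotype would differ as much could not be judged with 1 library each.

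**Figure D4:**
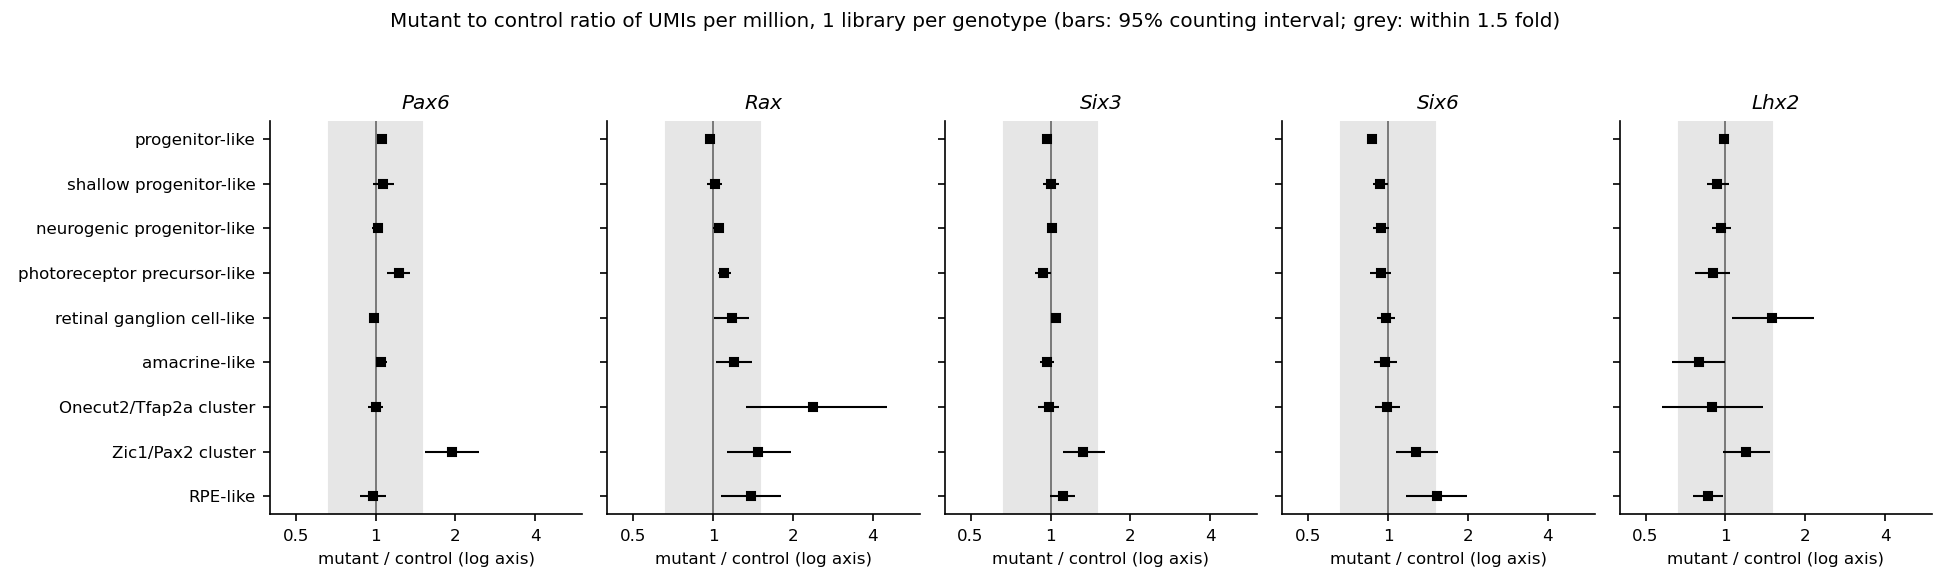
Ratio of mutant to control CPM of each gene (log axis) in the 9 eye cup classes, with 95% counting intervals; the grey band marks ratios within 1.5 fold. Points outside the band are Rax in the Onecut2/Tfap2a cluster, Pax6 in the Zic1/Pax2 cluster and Six6 in RPE-like cells.

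In 5 further retinal classes the ratios lay between 0.793, for Lhx2 in amacrine-like cells, and 1.5, for Lhx2 in retinal ganglion cell-like cells. In shallow progenitor-like cells 0 of 5 genes were past 1.5 fold, where 9.40% of all genes were, in neurogenic progenitor-like cells 0 of 5 (6.77%), in photoreceptor precursor-like cells 0 of 5 (8.41%), in retinal ganglion cell-like cells 0 of 5 (7.34%) and in amacrine-like cells 0 of 5 (10.0%). Ratios of Six3 in these classes lay between 0.935 and 1.05. Pax6 in photoreceptor precursor-like cells was at 164 control and 200.1 mutant CPM, a ratio of 1.22 (1.10 to 1.35). Lhx2 in retinal ganglion cell-like cells, near background in both, had a ratio of 1.5 (1.06 to 2.15). In the Onecut2/Tfap2a cluster 1 of 5 was past 1.5 fold higher in mutant, against 7.78% of all genes. It was Rax, at 13.5 from 15 UMIs in control and 32.2 from 57 UMIs in mutant, a ratio of 2.38 (1.33 to 4.53). Sox2, another transcription factor gene, had a ratio of 6.87 over the same cluster. Whether the same cells held the UMIs of both genes was not tested, nor was the source of these UMIs.

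In RPE-like cells, the class in which Myrf was expressed, Pax6 had a ratio of mutant to control of 0.979 (0.876 to 1.09), Six3 of 1.11 (0.998 to 1.24) and Lhx2 of 0.858 (0.752 to 0.976). Rax had a ratio of 1.39 (1.07 to 1.81) and Six6 of 1.53 (1.17 to 1.98). Six6 was the 1 of 5 past 1.5 fold higher in mutant, where 5.11% of all genes were. Fgf15 was at 43.2 control and 114 mutant CPM in RPE-like cells of at least 2000 UMIs. Sox2 had a ratio of 2.14 in the class, where 2 of 8 other patterning factors were past 1.5 fold higher and 2 lower. The median log2 ratio of the 5 was 0.16, and that of all genes -0.061. Without the 5 cells richest in Six6 in each library its log2 ratio was 0.20 instead of 0.61, and it was also 0.20 with a mitochondrial limit of 5%. Under that limit the Rax log2 ratio was -0.0078 instead of 0.48 and that of Lhx2 0.16 instead of -0.22. Other settings gave larger values, with 1.29 for Six6 and 0.90 for Rax when called doublets were kept, 1.26 and 1.25 for the mean over cells, 2.77 for both in cells of at most 2000 UMIs, and 1.47 and 1.41 in cells with no UMI of Pax3, Hbb-bt, Col1a1 or Atoh7.

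Outside the eye cup classes the 5 genes were higher in mutant mesenchyme-like cells, by ratios of 2.03 to 2.65, which puts 5 of 5 past 1.5 fold higher against 5.68% of all genes. Other retinal genes differed there by like amounts, with ratios of 2.82 for Nr2e1, 2.49 for Vax2, 2.40 for Otx2 and 2.11 for Sox2, and 5 of the 8 tested patterning factors were past 1.5 fold higher. Of the genes with at least 20 UMIs in a class, the same held for 5 of 5 in pericyte-like (7.12%), 3 of 3 in melanocyte-like (9.51%), 4 of 4 in Schwann cell-like (10.3%) and 5 of 5 in erythroid-like cells (49.6%, with a median log2 ratio over all genes of 0.58), 3 of 5 in immune-like (7.16%) and 1 of 5 in surface epithelium-like cells (9.71%). In endothelial-like cells 0 of 5 (12.9% either way) and in muscle-like cells 1 of 5, Lhx2 on the lower side (12.5% either way), were past 1.5 fold. The difference was not uniform within classes. In the mesenchyme-like cluster led by Spp1, Mgp and Acta2, Pax6 was at 17.6 control and 16.8 mutant CPM, Six3 at 26.6 and 24.7, Six6 at 21.2 and 18.4, Lhx2 at 9.35 and 7.97 and Rax at 14.8 and 17.9, whereas in the other 5 mesenchyme-like clusters each of the 5 genes was higher in mutant. In the erythroid-like cluster led by Hbb-bt, Six3 was at 6.01 and 5.33, Six6 at 4.26 and 4.53, Rax at 4.76 and 6.40, Pax6 at 5.01 and 6.67 and Lhx2 at 0.501 and 2.13. The part of RNA from other cells in the RPE-like ratios of Rax and Six6 was not tested.

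A cluster led by Cartpt, Zic1, Pax2 and Zic4, 56 control and 54 mutant cells, was the one nearest to ciliary margin by markers. It held Wfdc1 at 88.7 and 131 CPM, Otx1 at 86.9 and 101 and Msx1 at 28.4 and 115, but also the optic stalk genes Pax2, at 189.7 and 203, and Vax1, at 67.4 and 52.7, and it is called the Zic1/Pax2 cluster. Of the ciliary margin markers used for naming, Wls was lower in it than in all other classes together, at 26.6 and 30.1 against 63.4 and 43.3. The rest of those markers were higher in it in both libraries, some by little. Lhx2 was at 301 control and 362 mutant CPM in the cluster, its highest class level. Against progenitor-like cells the Lhx2 ratio was 1.05 (0.895 to 1.22) in control, within counting error, and 1.28 (1.12 to 1.45) in mutant. Six6 was at 353 and 452, Six3 at 326 and 435 and Rax at 153 and 226. Pax6 was at 193 (159 to 233) and 375 (330 to 425), a ratio of 1.94 (1.54 to 2.45). Pax6 was the 1 of 5 past 1.5 fold higher in mutant, against 11.1% of all genes. The ratios of the other 4 lay between 1.20 and 1.48. The 5 richest cells held 56.9% of the Pax6 UMIs in control and 42.6% in mutant.

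**Figure D5:**
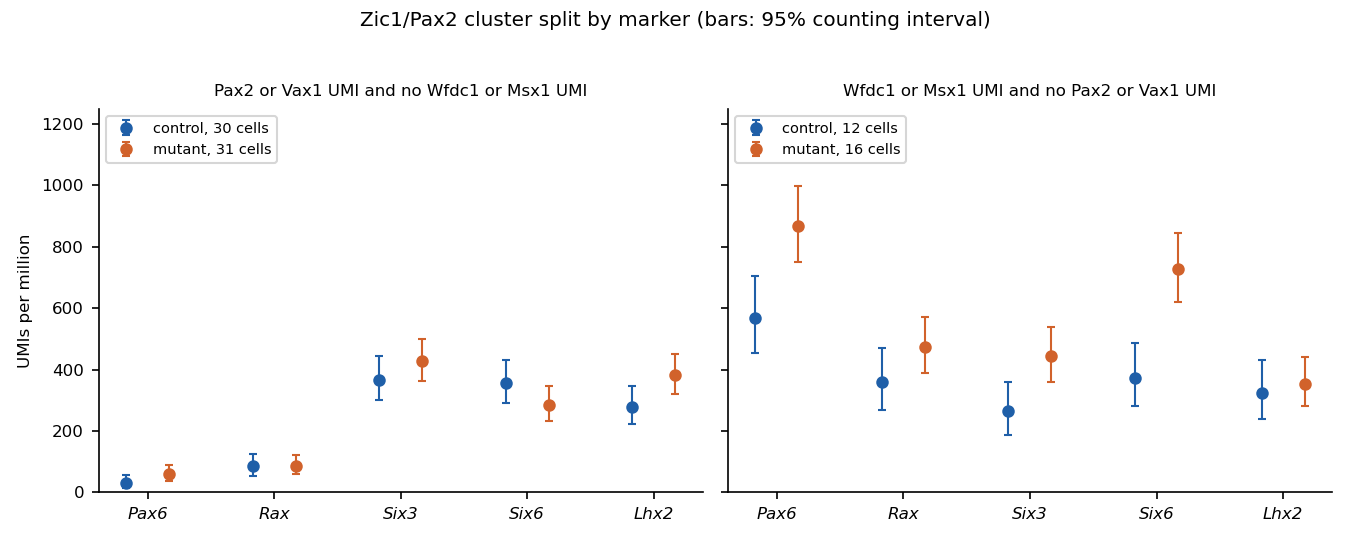
CPM of each gene (linear axis from 0) in cells of the Zic1/Pax2 cluster with a UMI of the optic stalk genes Pax2 or Vax1 and none of the ciliary margin genes Wfdc1 or Msx1 (left), and in cells with the reverse (right), for control (blue) and mutant (orange), with 95% counting intervals. Pax6 and Rax are low on the left and high on the right in both libraries.

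The cluster held cells of contrasting Pax6 level. In its 30 control and 31 mutant cells with a UMI of Pax2 or Vax1 and none of Wfdc1 or Msx1, Pax6 was at 30.6 (14.0 to 58.1) and 58.8 (36.8 to 89.0) CPM. In its 12 and 16 cells with a UMI of Wfdc1 or Msx1 and none of Pax2 or Vax1, Pax6 was at 569 (454 to 704) and 867 (750.3 to 998). Pax2 and Pax6 are known to repress each other at the border of optic stalk and optic cup. Rax was at 85.0 and 85.5 in the former cells and at 359 and 474 in the latter. Six3 was at 367 and 427 against 264 and 443, and Lhx2 at 279 and 382 against 325 and 354, so that neither had a step of that size. Six6 was at 357 and 286 in the former and 373 and 726 in the latter. The split by these markers was made after the cluster's leading genes had been seen.

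Few other genes of the eye field network were past 1.5 fold in progenitor-like cells, as was the case for all genes. Of 11 other patterning factors, all with at least 20 UMIs, 1 was past 1.5 fold higher in the mutant and 0 lower, beside 5.58% of all genes either way, with a median log2 ratio of -0.031. That gene was Hesx1, a forebrain repressor gene, at 0.305 and 0.493 CPM from 8 and 18 UMIs. Sox2, a stem cell factor gene, was at 394 control and 366 mutant. In RPE-like cells 8 of the 11 had at least 20 UMIs, of which 2 were past 1.5 fold higher (Sox2, at 15.4 control and 32.9 mutant CPM, and Nr2e1, at 9.92 and 20.2, beside 5.11% of all genes) and 2 lower (Tbx3, from 18 control and 5 mutant UMIs, and Tbx5, from 17 and 5, beside 8.82% of all genes). The RPE factor gene Mitf was at 226 control and 167 mutant, a ratio of 0.737 (0.645 to 0.839), and Otx2, which acts with it, at 423 and 376.

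Most genes for cofactors of these proteins were within 1.5 fold. Of 17, all were tested in progenitor-like cells, where 1 was past 1.5 fold higher, the coactivator gene Eya2 at 2.37 control and 4.03 mutant CPM, and 1 lower, Dach2 at 3.13 and 1.97, beside 5.58% of all genes either way. In RPE-like cells 0 of 15 were past 1.5 fold, beside 13.9% of all genes either way, and Meis2, a TALE homeodomain gene, was at 117 and 84.4, a ratio of 0.723 (0.600 to 0.869). Of 8 further genes of the same families, 5 had at least 20 UMIs in progenitor-like cells and 0 were past 1.5 fold, too few to set against the share of all genes. In RPE-like cells 2 of the 8 did, and 1, Six4, was higher, at 3.65 control and 6.37 mutant CPM from 14 and 12 UMIs. The antisense gene Pax6os1 was at 17.6 and 19 in progenitor-like cells, at 2.31 and 1.12 in retinal ganglion cell-like cells and at 8.40 and 4.85 in amacrine-like cells, where Pax6 was highest. Whether counting used the strand was not given in the sources used here, so that reads of an overlapping antisense gene may be counted in the levels of Six3, as of Pax6.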

How the data were processed

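Single-cell 3′ libraries were analysed from UMI counts that the authors deposited unnormalized per gene and barcode, aligned to mm10. The submitters' processing notes name Cell Ranger 7.1.0 and Seurat 4.1.1, whereas the matrix headers give version 3.1.0, and called barcodes held at least 500 UMIs. Cells with under 200 genes or over 15% mitochondrial UMIs were left out. Scrublet in scanpy 1.11.5 was run per library. Its automatic threshold marked 366 control and 0 mutant barcodes, so a score limit of 0.2 was set for both, which removed 366 (3.06%) and 395 (3.03%), and doublets may remain. The libraries were clustered together, without integration, on 1877 variable genes, leaving out the 5 genes, the listed genes and the naming markers, with 30 principal components, 15 neighbours and Leiden resolution 1.0. Of 36 clusters 31 were named from markers, and the limits below which a cluster stayed unnamed were chosen with the data in view. Names can differ from the study's own.

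Counts were summed per class and library. Levels have exact Poisson intervals, ratios exact conditional binomial ones and shares of cells Clopper-Pearson ones (scipy 1.17.1), all for counting error only. The background share in each class is taken over genes of 20 or more UMIs summed over libraries. The named genes were the 5 members, the 5 genes with the most similar pattern to each, and fixed lists of patterning factors, cofactors, family members and antisense genes, with the examples of largest ratio. The members and lists were chosen with earlier results of these data known. Six3os1 was not analysed here, and 1 listed patterning factor is not reported here. Scripts were tested on simulated counts. The study's stated upper limit of 2000 UMIs per cell was tried only as an alternative, since 79.1% of control and 80.6% of mutant barcodes lay above it.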

Additional observations from a re-analysis of the deposited data

How the results depend on the processing

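No paired analysis was possible because each genotype had 1 library, and for the same reason no replicate was left out. Counting depth limits the low values: Rax and Six6 in RPE-like cells rest on 100 to 146 UMIs per library, and values in small classes on fewer, such as Rax in the Onecut2/Tfap2a cluster on 15 and 57. All values here are log2 ratios unless a percent is given. Mutant to control, 26 of 50 alternative values in RPE-like cells and 42 of 50 in progenitor-like cells moved by less than the counting interval of the main value, and so did 36 of 80 of the ratios of RPE-like to progenitor-like cells and 244 of 371 of those of other classes. Of the shares of RPE-like and progenitor-like cells with a UMI, 35 of 40 alternative values left the interval of the main value. The shares of all genes past the fold changed by more than 1.5 fold in 4 of 4. The causes of the moves were not tested.

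In RPE-like cells, mutant to control, the 5% mitochondrial limit gave 0.14 for Pax6, -0.0078 for Rax, -0.053 for Six3, 0.20 for Six6 and 0.16 for Lhx2, so that Rax and Lhx2 changed direction and Six3, at 0.16 in the main analysis, did too. Keeping called doublets gave 0.29 for Pax6, 0.90 for Rax, 1.29 for Six6 and -0.031 for Lhx2. Leaving out cells over 2000 UMIs gave 0.37 for Pax6, 2.77 for Rax, 0.61 for Six3 and 2.77 for Six6. Cells with no UMI of Pax3, Hbb-bt, Col1a1, Atoh7 or Fgf15, chosen after seeing the data, gave 0.15 for Pax6 and 0.93 for Rax, and without the condition on Fgf15, also chosen after seeing the data, 0.27 for Pax6, 1.41 for Rax, 0.52 for Six3 and 1.47 for Six6. The mean over cells gave 0.29 for Pax6, 1.25 for Rax and 1.26 for Six6. Cells with an Xist UMI and no Y-linked UMI gave 0.19 for Pax6, and leaving out the 5 richest cells gave 0.20 for Six6. Six6 was higher in the mutant under each of these alternatives, and Pax6, at -0.031 in the main analysis with an interval that includes 0, was positive under all but 2 of them: it was -0.016 at Leiden resolution 2.0 and -0.13 without the 5 richest cells.

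In progenitor-like cells, mutant to control, leaving out cells over 2000 UMIs left 35 control and 58 mutant cells and gave -0.02 for Pax6, 0.038 for Six3 and 0.86 for Lhx2, which were 0.084, -0.05 and -0.021 in the main analysis and so changed direction, and -0.32 for Rax and -0.34 for Six6. Cells with no UMI of other classes' markers gave 0.12 for Pax6 and -0.12 for Rax, and cells with an Xist UMI and no Y-linked UMI gave -0.066 for Lhx2. With the shallow progenitor clusters added, an alternative chosen after seeing the data, the Six6 value was -0.18.

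For RPE-like against progenitor-like cells, values are given as control and then mutant where both moved. The 5% mitochondrial limit gave -0.82 for Pax6 in control, -3.03 and -3.01 for Rax, -1.54 for Six3 in mutant, -3.32 and -2.91 for Six6, and -0.74 for Lhx2 in control. Keeping called doublets gave -0.40 for Pax6 in mutant, -3.37 and -2.43 for Rax, -3.65 and -2.17 for Six6, and -0.47 for Lhx2 in mutant. Leaving out cells over 2000 UMIs gave -1.04 for Pax6 in control, -5.12 and -2.04 for Rax, -1.77 and -1.20 for Six3, -6.49 for Six6 in control, and 0.49 for Lhx2 in control, which changed direction. Cells with no UMI of other classes' markers gave -1.04 and -1.01 for Pax6, -5.65 and -4.60 for Rax, -1.69 for Six3 in control, -5.94 and -5.17 for Six6, and -0.63 for Lhx2 in control. Leaving out the 5 richest cells gave -0.76 and -0.98 for Pax6, -4.45 and -3.96 for Rax, -1.68 and -1.53 for Six3, and -4.74 and -4.34 for Six6. The mean over cells gave -0.85 for Pax6, -4.41 for Rax and -4.82 for Six6 in control, and -1.82 and -1.56 for Six3. Cells with an Xist UMI and no Y-linked UMI gave -0.46 for Pax6, -3.00 for Rax and -1.22 for Six3 in mutant.

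For other classes against progenitor-like cells, 6 values changed direction, all when cells over 2000 UMIs were left out, and rested on 1 to 18 cells of the class. They were 0.53 for Pax6 in mutant and 0.48 for Six3 in control neurogenic progenitor-like cells, 0.075 for Rax in control photoreceptor precursor-like cells, -0.55 for Pax6 in control and -0.30 for Six3 in mutant retinal ganglion cell-like cells, and 1.48 for Six6 in the mutant Zic1/Pax2 cluster. With called doublets kept, no cluster received the name of the Zic1/Pax2 or the Onecut2/Tfap2a class, and at resolution 2.0 none received the latter. A cluster of 83 cells led by Cartpt, Pax2 and Zic1 did form with doublets kept but stayed unnamed, and Onecut2 was there among the leading genes of an amacrine-like cluster. At resolution 2.0 a cluster of 326 cells led by Onecut2 and Tfap2a formed and was named horizontal. These clusters were not compared. Among small cells some genes had 0 UMIs in a class, and no value was given. For Six3 in endothelial-like against mesenchyme-like cells, cells with at least 1 Cdh5 UMI gave 4.82 and 3.36, also chosen after seeing the data.

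The share of all genes past the fold in RPE-like cells was 5.23% with at least 100 UMIs and 4.12% at a fold of 2, and in progenitor-like cells 1.61% and 1.67%. The share of RPE-like cells with a UMI was, at 4000 UMIs, 52.8% and 54.1% for Pax6, 58.3% and 61.2% for Six3 and 54.6% and 42.9% for Lhx2, and without thinning 50% and 55.5% for Pax6, 16% and 25.1% for Rax, 57.7% and 57.6% for Six3, 18.8% in mutant for Six6, and 59.1% and 56.0% for Lhx2.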
